A study of Homo sapiens with 4 samples.

Results

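The interferon-gamma and LPS macrophage was set against the interleukin-4 macrophage, the M1 array against the M2a array, over every annotated gene whose probe was detected on either of the 2 arrays. Of 20045 annotated genes, 9791 met this rule, with 7642 detected on both arrays, 674 on M1 only and 1475 on M2a only, and 10395 were detected on any of the study's 4 arrays. The M0 and M2c arrays took part in the normalization and are quoted for some genes, but not in the contrast.

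The study measured total RNA from THP-1 macrophages on Illumina BeadChips, with 1 array for each of the groups M0, M1, M2a and M2c. THP-1 is an established human line from an acute monocytic leukemia, so all groups share the genome of a leukemic line that grows as monocyte-like cells. M1 macrophages came from M0 cells exposed to interferon-gamma and LPS, and M2a macrophages from M0 cells exposed to interleukin-4 (IL-4). No source used here states the doses, the exposure times or the agent that turned the cells into macrophages. With 1 array a group there is no replicate and hence no test, and every difference below is between 2 arrays. The array of M1 also differs from that of M2a by everything else that differed between the 2 preparations, which cannot be told apart from the treatment.

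As background, interferon-gamma signals through JAK kinases to STAT factors that bind the GAS element, LPS signals through TLR4 to NF-kappaB and to interferon regulatory factors, and interferon made in response acts back on the cell through the ISRE element. IL-4 signals through IL4R to STAT6, which binds a palindrome with a wider spacer. In monocytes and macrophages the first programme is known for inflammatory cytokines, antigen presentation and antiviral proteins, and the second for CCL chemokines such as CCL18 and CCL26, lipoxygenase, CD1 proteins, lipid uptake and retinoic acid synthesis.

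Levels are log2 normalized intensities of a gene's probe, and differences are M1 minus M2a on that log2 scale, so that 1 unit is 2-fold. A probe was called detected at a detection p below 0.01, and the dimmest detected probe read 5.60 on M1 and 5.35 on M2a. Where a gene was detected on 1 of the 2 arrays only, its fold change is given as at least the ratio of the bright value to the higher of the dim probe's own value and that dimmest detected value. These bounds hold for the normalization used here. A gene was counted as higher in one state when the difference was at least 2-fold. As alternatives, 7 other ways of computing the values were run (the authors' normalized table, no background correction, a larger offset, scaling to a common median over all probes or over detected probes, normalizing the 2 arrays alone, and averaging a gene's probes), and they are quoted where they matter.

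By this rule 1536 genes, 15.7% of the 9791, were higher in M1 and 1736 genes, 17.7%, were higher in M2a. Differences of at least 8-fold were found for 229 genes higher in M1 (2.34%) and for 95 genes higher in M2a (0.97%). The median difference over all 9791 genes was -0.17, with quartiles of -0.79 and 0.57, a highest value of 9.60 and a lowest of -6.82. Scaling both arrays to a common median over all probes moved that median to -0.59 and the counts to 955 higher in M1 and 3100 higher in M2a, while scaling over the detected probes moved it to 0.04 with 1900 and 1180. Genes higher in M1 thus made up 46.9%, 23.6% and 61.7% of those past 2-fold under the 3 scalings, and the balance between the directions depended on the scaling. The M1 array was the dimmer one, with a median raw intensity of 274.7 against 395.95 on M2a over the 10988 probes detected on all arrays, and with 12937 against 14280 detected probes. The part of this difference in brightness in the counts was not tested.

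The genes higher in M1 took a large part of that array's signal. They held 30.9% of the summed signal of the tested genes on M1 and 7.80% on M2a, whereas the genes higher in M2a held 18.2% on M2a and 6.05% on M1. Genes higher in M1 had a median level of 8.56 on M1 and 6.47 on M2a, beside 6.65 on M0 and 6.68 on M2c. Genes higher in M2a had a median of 6.16 on M1 and 7.92 on M2a, beside 7.67 on M0 and 7.72 on M2c. The median levels of both sets on M0 and M2c thus lay near that of M2a, and M1 was the array that stood apart. Over the 7642 genes detected on both arrays, the levels on the 2 arrays correlated across genes with a Pearson r of 0.83 and a Spearman rho of 0.81, a description of 2 libraries in which genes are not replicates.

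Where a changed gene had a second detected probe, that probe gave an internal check. Among 745 such genes, 694 (93.2%) had other probes that differed in the same direction on average and 505 (67.8%) had them past 2-fold as well. Of the genes counted as changed, 457 higher in M1 and 713 higher in M2a were detected on 1 array only, where 54.4% of the 2149 genes passed 2-fold against 27.5% of those detected on both, and for 285 and 297 of these the bound itself was at least 2-fold.

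**Figure D1:**
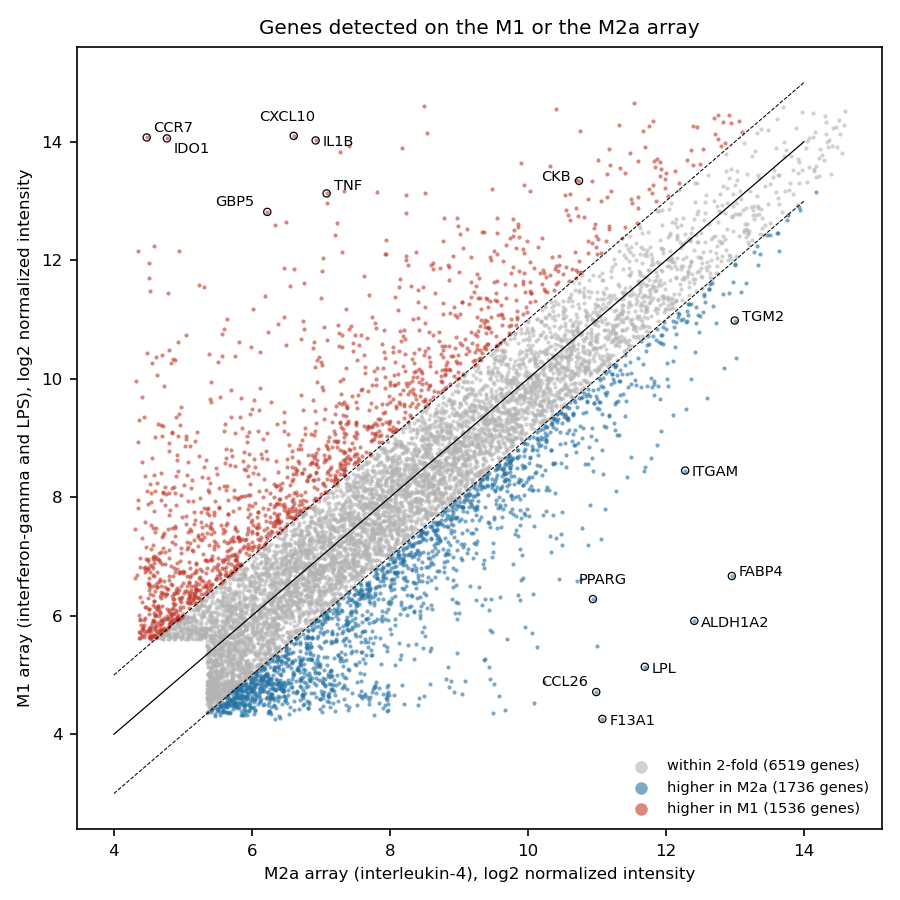
Each point is 1 of the 9791 genes, with its log2 normalized intensity on the M2a array (horizontal) and on the M1 array (vertical); red points are the 1536 genes at least 2-fold higher in M1, blue points the 1736 higher in M2a and grey points the 6519 others, with dashed lines at 2-fold. CCR7 and IDO1 lie at the top left, near background on M2a and above 14 on M1, and LPL, FABP4 and ALDH1A2 lie far to the lower right.

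Both arrays carried a macrophage or monocyte identity. All 13 identity genes on the array were detected on M1 and 12 on M2a, among them CD68 at 14.02 on M1 and 14.04 on M2a, the adaptor TYROBP at 13.47 and 13.91, and the lineage factor SPI1 at 12.14 and 11.49. None of the 13 was higher in M1, 3 were higher in M2a and 10 were within 2-fold. The gene not detected on M2a was PTPRC, which encodes CD45 and was dim on both arrays (5.78 on M1, 5.14 on M2a). The 3 higher in M2a were the integrin chain ITGAM, the receptor CSF1R (11.62 on M1, 13.16 on M2a) and the factor CEBPA (10.54 and 12.14). The list's median was -0.45 and changed sign to 0.12 under scaling over the detected probes. Constitutive reference genes had a median of -0.32, with ACTB at 14.25 and 14.46 and GAPDH at 11.85 and 12.22, and 10 of 12 were within 2-fold. Epithelial and endothelial markers were detected on neither array (0 of 7), and neither were the T cell markers CD3D, CD3E and CD8A, the B cell marker MS4A1 or the erythroid globins. Of 8 T cell markers CD2 (5.99 on M1, 4.83 on M2a) and CD247 (5.64 and 5.06) were detected, on M1 only and near background, and CD2 passed 2-fold with a bound of at least 1.57-fold. Of 5 B cell markers CD79B (7.46 and 7.40) was within 2-fold and CD22 (4.80 and 5.84) was higher in M2a with a bound of at least 1.18-fold. Of 7 erythroid markers EPOR was detected, on M2a only (4.74 and 5.73), and of 7 fibroblast markers DCN, on M1 only (6.60 and 4.80, at least 2.38-fold). The summed levels of the detected members of the T cell, B cell, erythroid and fibroblast lists were 6.83, 7.67, 4.74 and 6.60 on M1 and 5.95, 7.82, 5.73 and 4.80 on M2a (log2). Of 7 NK cell markers NKG7 (9.44 on M1, 7.93 on M2a, 9.43 on M0) and GNLY (8.66, 6.14 and 7.95) were detected and both were higher in M1, while KLRD1, NCR1, PRF1, GZMA and GZMB were not detected. The log2 of the list's summed level was 10.10 on M1 and 8.30 on M2a, and the part of these markers in other results was not tested.

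The label of each array was checked against target genes of its cytokine. Of 22 detected core targets of interferon-gamma, 19 were higher in M1, 0 were higher in M2a and 3 were within 2-fold, with a median difference of 3.82. Of 23 detected genes known to answer IL-4 and STAT6, 21 were higher in M2a, 1 was higher in M1 and 1 was within 2-fold, with a median of -3.31, or -2.35 with genes detected on 1 array at their bound. For comparison, 15.7% and 17.7% of all genes tested were higher in M1 and in M2a. Of the IL-4 genes 7 were detected on M1 and 22 on M2a, so most entered through the array where they are high. Among members detected on both arrays, 13 of 16 interferon-gamma targets were higher in M1 and 5 of 6 IL-4 genes in M2a. The shares of all genes detected on both were 14.1% and 13.4%. Of all 2149 genes detected on 1 array only, 33.2% were higher in M2a, and of the 1475 detected on M2a only, 713 were. Both lists were drawn up with earlier results of these arrays known, so their counts describe the arrays and are no independent evidence.

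**Figure D2:**
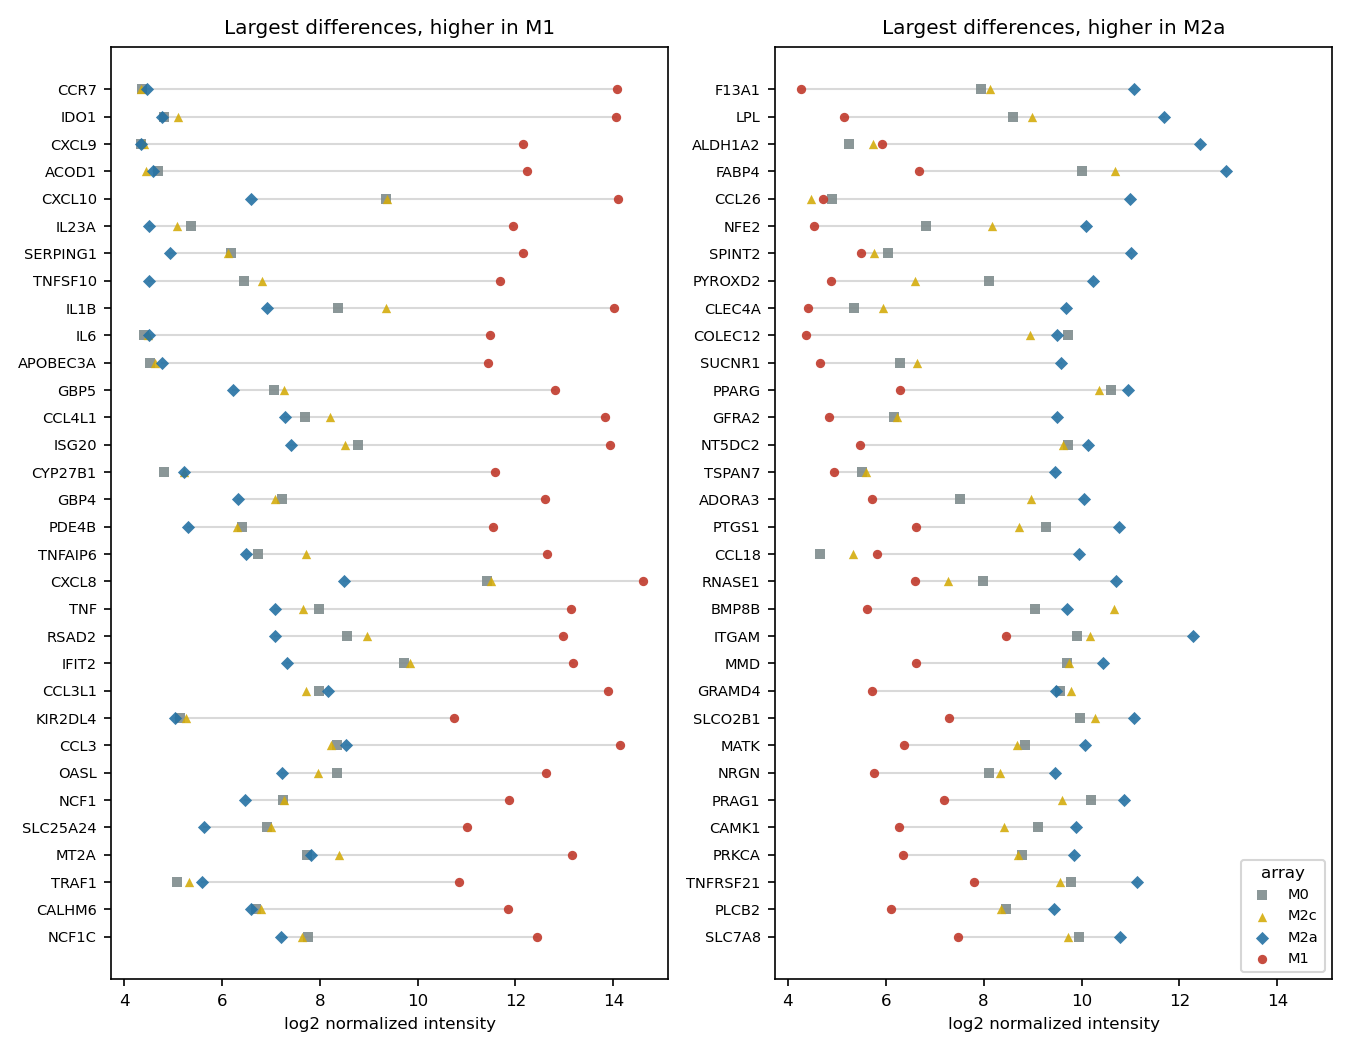
Log2 normalized intensity of 64 genes on the 4 arrays, 1 row a gene; left, the 20 largest differences higher in M1 among genes detected on both arrays and the 12 with the largest bound among those detected on M1 only, and right the same for M2a, each panel ordered by the size of the difference. The circles (M1) are far to the right of the other 3 arrays for nearly every gene on the left, while on the right the diamonds (M2a) are often close to M0 and M2c, as for PPARG and NT5DC2, and stand alone for ALDH1A2, CCL26 and CCL18.

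The largest differences higher in M1 were of chemokines, cytokines and interferon-induced genes. CXCL10, a ligand of the T cell receptor CXCR3, read 14.10 on M1 and 6.61 on M2a, 180.3-fold, with 9.36 on M0 and 9.38 on M2c. CXCL9, which acts on the same receptor, read 12.16 on M1 and was not detected on the other 3 arrays, at least 113-fold. CXCL10 was therefore below its M0 level on the M2a array, which CXCL9 could not show. The CXCL10 promoter holds an ISRE-type and a NF-kappaB-type match, the ISG15 promoter 2 overlapping ISRE-type matches and the IRF1 promoter a GAS-type match; they are shown because these 3 genes stand for the 3 elements through which the M1 stimuli are known to act. The windows are RefSeq sequences of build GRCh38.p14, 5′ to 3′ on the gene's strand, with the matches in capitals: CXCL10 at chr4:76023652-76023732 (minus strand), ISG15 at chr1:1013367-1013417 (plus strand) and IRF1 at chr5:132490863-132490923 (minus strand).
CXCL10: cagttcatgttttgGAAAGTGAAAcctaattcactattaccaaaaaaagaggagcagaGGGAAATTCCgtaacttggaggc
ISG15: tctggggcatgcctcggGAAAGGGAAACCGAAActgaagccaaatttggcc
IRF1: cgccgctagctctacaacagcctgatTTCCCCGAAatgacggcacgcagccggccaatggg

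The guanylate-binding proteins, GTPases that attack vacuoles of intracellular microbes, were higher in M1 in every detected member. GBP5 read 12.82 on M1 and 6.22 on M2a, GBP4 read 12.60 and 6.33, and GBP1 read 13.11 and 8.23. With the dynamin-like antiviral GTPases MX1 and MX2, 7 of 7 detected members of the list were past 2-fold, with a median of 3.76. The smallest difference was that of MX1, which was bright on both arrays at 14.27 and 12.39. The apolipoprotein L genes, of which APOL1 forms pores that kill trypanosomes, were also all higher in M1 (4 of 4 detected). APOL3 read 11.18 on M1 and 6.02 on M2a. APOL1 and APOL6, detected on M1 only, had bounds of at least 2.03-fold and at least 1.76-fold, and 2 of the 4 calls held in all 7 alternatives.

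Genes known from the type I interferon response were higher in M1 in 33 of 34 detected members, 31 of them in all 7 alternatives, with a median of 3.12. ISG20, an exonuclease that degrades viral RNA, read 13.93 on M1 and 7.40 on M2a. RSAD2, which encodes viperin, read 12.96 and 7.08, and IFIT2, a binder of foreign RNA, read 13.17 and 7.33. For both RSAD2 and IFIT2 the M2a level was below those of M0 (8.56 and 9.72) and M2c (8.97 and 9.86). The RNA sensors IFIH1 (11.50 and 8.40) and DHX58 (10.74 and 7.49) and the 2′-5′ oligoadenylate synthetase OAS1 (12.47 and 9.33) followed the same order. ISG15, the ubiquitin-like modifier whose promoter is shown above, read 14.28 and 11.32, and USP18, which removes it, read 11.92 and 8.26. IFI6 was the member within 2-fold at 14.58 and 13.69, both close to the brightest readings of the arrays, although its other probes differed by 1.75. The next smallest differences were those of BST2, which tethers virions (12.63 and 11.58), and IRF9 (12.22 and 10.99), so the 3 least different members were bright on both arrays.

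Interferon regulatory factors were not uniformly different. IRF1 read 12.11 on M1 and 7.92 on M2a, IRF7 read 13.13 and 8.51, and IRF2, a competitor of IRF1, read 9.03 and 5.93. IRF9, which with STAT factors binds the ISRE, was higher in M1 by 1.23. IRF3 (0.44), IRF5 (0.91) and IRF8 (-0.54) were within 2-fold, so 4 of 7 detected members were higher in M1 and none was higher in M2a. BATF2, a factor induced by interferon-gamma, read 10.58 and 6.50, and CIITA, the master regulator of MHC class II genes, read 6.35 and 4.57 and had a bound of at least 2.00-fold.

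Receptors and kinases of the polarising signals differed less than their targets. Of 19 detected members, 4 were higher in M1, 3 were higher in M2a and 12 were within 2-fold, with a median of 0.29. The interferon-gamma receptor chains IFNGR1 (9.59 on M1, 10.30 on M2a) and IFNGR2 (13.18 and 12.19) and the LPS receptor TLR4 (6.65 and 7.34) were all within 2-fold. STAT6, the factor of IL-4 signalling, read 9.79 and 8.99, also within 2-fold. The IL-4 receptor chain IL4R was higher in M1 (9.03 and 7.96), a call kept in 3 of 7 alternatives, and the chain IL13RA1 was higher in M2a (8.13 and 9.26), a call kept in 5. The common gamma chain IL2RG, which pairs with IL4R in 1 form of the receptor, and its kinase JAK3 were not detected on either array. STAT4 read 10.37 on M1 and 6.97 on M2a, IL10RA, the interleukin-10 receptor, 11.78 and 9.27, and JAK2 at least 4.46-fold more on M1. LY96, the co-receptor MD-2 that presents LPS to TLR4, was higher in M2a (10.06 and 11.29).

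Of 7 detected feedback inhibitors of cytokine signalling, 1 was higher in M2a and 2 were higher in M1. CISH, a STAT5 target and feedback inhibitor, read 4.62 on M1 and 7.95 on M2a, at least 5.07-fold, against 4.70 on M0. SOCS3, an inhibitor of interleukin-6 type receptors, read 6.72 and 5.01, and SOCS2 read 6.50 and 5.06, with bounds of at least 2.59-fold and 2.23-fold. SOCS1, which inhibits both interferon-gamma and IL-4 signalling, was high in both states, at 8.60 on M1 and 7.88 on M2a, and at background on M0 (4.83) and M2c (5.09). It thus did not separate M1 from M2a. The calls of SOCS2 and SOCS3 held in 3 and 5 of the 7 alternatives, and that of CISH in all 7.

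Genes of NF-kappaB and its feedback were higher in M1 without exception among those detected (17 of 17, median 2.81, with 14 of the 17 in all 7 alternatives). TRAF1, an adaptor of TNF receptors, read 10.85 on M1 and 5.60 on M2a. The subunits NFKB2 (9.49 and 6.01) and RELB (10.18 and 7.37) of the non-canonical pathway and the inhibitors TNFAIP3 (11.41 and 7.70) and NFKBIA (13.70 and 11.01) were higher in M1. NFKB1 differed less, at 12.14 and 10.69. Among cytokines that NF-kappaB is known to drive, IL6, detected on M1 only, read 11.48 against 4.52, at least 70.3-fold. NF-kappaB-type matches of the IL6 promoter (chr7:22727105-22727155, plus strand) and the NFKBIA promoter (chr14:35404799-35404854, minus strand) are shown in capitals, in RefSeq sequence of GRCh38.p14, because these 2 genes stand for the cytokine and the feedback arm.
IL6: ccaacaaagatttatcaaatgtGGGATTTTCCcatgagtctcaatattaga
NFKBIA: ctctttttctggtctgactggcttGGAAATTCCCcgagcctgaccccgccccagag

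Inflammatory cytokines were higher in M1 in 13 of 16 detected members, all 13 of them in the 7 alternatives for values, with a median of 3.49. Of the 16, 15 were detected on M1 and 8 on M2a. Among the 7 detected on both arrays, 5 were higher in M1 and 0 were higher in M2a. IL1B read 14.02 on M1 and 6.92 on M2a, 137-fold, and TNF read 13.13 and 7.08, 66.0-fold. IL23A, the p19 chain of interleukin-23, was detected on M1 and not on M2a, at least 97.1-fold, and EBI3 and IL27, which together form interleukin-27, were higher by 3.27 and by at least 7.14-fold. The death ligand TNFSF10 read 11.69 on M1 against 4.51 on M2a, at least 81.4-fold, and 6.46 on M0. IL18 was within 2-fold at 12.08 and 11.68, as were LTB and TNFSF15. IL1A, IL12A and IL12B were not detected on either array. The antagonist of interleukin-1, IL1RN, read 13.46 and 11.15, and the decoy IL18BP 12.42 and 10.98, so the inhibitors were higher in M1 along with IL1B.

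The chemokines divided by state. Of 18 detected inflammatory chemokines, 17 were higher in M1 and CXCL3 alone was not (5.52 on M1, 6.02 on M2a), with a median of 5.08. CXCL8, which attracts neutrophils, read 14.60 on M1 and 8.49 on M2a, with 11.42 on M0 and 11.49 on M2c. CXCL1 read 11.56 and 6.55, CXCL2 was at least 23.3-fold higher and CCL20, the ligand of CCR6, at least 38.8-fold higher in M1. CCL3, a ligand of CCR1, read 14.14 and 8.53. The probes of CCL3L1 (5.73), CCL3L3 (4.15) and CCL4L1 (6.55, and 1.46 for its other probe) belong to near-identical copies and their separate values are uncertain. The monocyte attractants CCL2 (14.24 and 12.44), CCL7 (9.87 and 7.02) and CCL8 (14.35 and 11.81) were higher in M1 yet were also well above M0 on the M2a array, where M0 read 10.66, 4.36 and 8.58.

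Of 5 detected chemokines linked to IL-4, 3 were higher in M2a and 2 were higher in M1. CCL26, eotaxin-3, read 10.99 on M2a against 4.71 on M1, at least 41.8-fold, and was not detected on M0 or M2c. CCL18 read 9.95 on M2a and 5.81 on M1, and CCL23 read 11.87 and 8.89. CCL22, a ligand of CCR4, went the other way at 7.73 on M1 and 6.51 on M2a, a call kept in 3 of 7 alternatives, and so did CCL14 at 8.53 and 5.95, kept in all 7. CCL17 and CCL24 were not detected on either array. The list thus set CCL26, CCL18 and CCL23 apart from CCL22 and CCL14.

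Chemokine receptors held the largest difference of all. CCR7, the receptor that guides dendritic cells to lymph nodes, read 14.07 on M1 and was at background on M2a (4.48), M0 (4.37) and M2c (4.34), at least 424-fold. Its ligand CCL19 read 10.27 on M1 and 4.55 on M2a, at least 30.3-fold. CX3CR1, the fractalkine receptor, was higher in M2a (4.89 and 7.58, at least 3.94-fold) and highest on M0 (9.66). CCR2, the receptor of CCL2, was within 2-fold at 7.40 and 8.31. In all, 5 of 7 detected receptors were higher in M1.

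Antigen presentation to CD4 T cells was higher in M1 in 10 of 13 detected genes, with a median of 2.02, and none was higher in M2a. HLA-DRA read 13.88 on M1 and 11.17 on M2a, the invariant chain CD74 13.61 and 11.19, and HLA-DPA1 12.07 and 8.23. The M2a levels of HLA-DPA1 and of the peptide exchanger HLA-DMA (11.60 and 10.41) exceeded those of M0 (4.52 and 9.12), so M2a lay between M0 and M1. Probes of the HLA-DRB genes match near-identical sequences, and their values (differences of 1.85 to 3.15) are uncertain. In the class I pathway 14 of 18 genes were higher in M1, with a median of 1.42. The peptide transporter TAP1 read 14.18 and 11.67, and the immunoproteasome subunit PSMB9 12.49 and 9.36. B2M, the class I light chain, was within 2-fold at 14.51 and 13.98. Constitutive proteasome subunits were mostly within 2-fold (9 of 13), with a median of 0.25 that became -0.08 under scaling over all probes.

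The CD1 genes, whose proteins present lipids rather than peptides, ran opposite to MHC class II. CD1A read 7.95 on M2a and 4.40 on M1, CD1B 7.99 and 4.66, and CD1C 7.85 and 4.53, each detected on M2a only, with bounds of at least 5.09-fold, 5.21-fold and 4.73-fold. CD1D read 9.12 and 7.45 and CD1E 6.66 and 4.73. All 5 CD1 genes of the array that were tested were therefore higher in M2a.

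Costimulators did not move as a block. CD40 read 11.82 on M1 and 7.02 on M2a, CD80 read 10.61 and 5.81, and SLAMF7 11.04 and 6.46. CD86, the other ligand of CD28 besides CD80, was higher in M2a (9.06 and 10.66), as was the inhibitory receptor HAVCR2 (11.47 and 13.09), both in all 7 alternatives. CD274, which encodes PD-L1, was at least 9.51-fold higher in M1, while PDCD1LG2, which encodes PD-L2, was not detected on either array. The counts were 9 higher in M1 and 2 higher in M2a of 13 detected.

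Sensors and their adaptors were higher in M1 in many members. Among Toll-like receptors and adaptors 8 of 14 were higher in M1 and none was higher in M2a, with a median of 1.32. Over the 7 alternatives 6 to 9 were higher in M1, 5 of them in every one, with medians of 0.59 to 1.48, and 1 was higher in M2a under scaling over all probes. TLR8, a sensor of single-stranded RNA, read 9.65 and 6.88, the adaptor MYD88 9.82 and 7.03, and the kinase IRAK2 11.62 and 6.75. Among inflammasome and DNA-sensing genes 9 of 13 were higher in M1 and 2 were higher in M2a. AIM2, a sensor of cytosolic DNA, read 10.75 and 5.57, CASP1 11.15 and 8.12, and the pore-former GSDMD 11.10 and 8.78. NLRP3 (10.39 and 10.15) and the adaptor PYCARD (10.77 and 10.85) were within 2-fold. CGAS, which makes cyclic GMP-AMP, was higher in M1 (8.39 and 6.08), while its receptor STING1 was higher in M2a (8.65 and 9.77), a call kept in 5 of 7 alternatives.

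Complement genes were higher in M1 in 8 of 14 detected members. SERPING1, the inhibitor of C1, read 12.15 on M1 and 4.94 on M2a, at least 112-fold, the alternative-pathway factor CFB 9.66 and 5.40, and the protease C1S 9.24 and 5.60. Of the C1q chains only C1QB passed 2-fold (12.70 and 9.78), with C1QA at 8.35 and 7.60 and C1QC at 12.03 and 11.25.

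Enzymes that mark the 2 states in metabolism gave some of the widest gaps. IDO1, the first enzyme of tryptophan breakdown, read 14.06 on M1 and 4.77 on M2a, at least 419-fold, and a second probe differed by 9.52. ACOD1, which makes itaconate, read 12.24 and 4.59, at least 119-fold, and WARS1, tryptophanyl-tRNA synthetase, 14.19 and 10.75. Further along the kynurenine route KYNU was higher in M1 (12.38 and 9.75), whereas KMO was within 2-fold (5.18 and 6.13). The polyamine enzymes were split, with SAT1, which acetylates spermine, higher in M1 (13.17 and 10.03) and ODC1, which makes putrescine, higher in M2a (8.88 and 10.67). For creatine, the kinase CKB read 13.34 on M1 and 10.74 on M2a against 5.91 on M0, and GATM, which makes its precursor, read 6.17 and 8.16. ARG1, ARG2 and NOS2, the arginine enzymes used as state markers in mouse macrophages, were not detected on either array.

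CYP27B1, which activates vitamin D, read 11.59 on M1 and was not detected on M2a, at least 75.8-fold. Metallothioneins, zinc-binding proteins, were higher in M1 in all 7 members detected. MT2A read 13.15 on M1 and 7.82 on M2a, and MT1M at least 15.6-fold more on M1. The genes are near-identical and their probes may share signal. The zinc transporters SLC39A8 (0.44), SLC39A14 (0.88) and SLC30A1 (0.94) were within 2-fold. The oxidase subunit NCF1 read 11.86 and 6.47, and its pseudogene NCF1C, which shares its sequence, 12.43 and 7.20, so the source of this signal is uncertain. The other oxidase chains CYBA, CYBB and NCF4 were within 2-fold. SOD2, the mitochondrial superoxide dismutase, read 14.66 and 11.53, while catalase CAT was higher in M2a (8.45 and 10.94).

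On the M2a side ALDH1A2, which makes retinoic acid from retinal, had the widest gap of the genes that both arrays detected. It read 12.41 on M2a and 5.91 on M1, 90.4-fold, with 5.25 on M0 and 5.73 on M2c, and its other probe differed by -5.15. Other members of retinoid handling were higher in M2a too, in 5 of 6 detected genes. The carrier CRABP2 was at least 3.25-fold higher, the retinal reductase DHRS3 read 8.14 on M1 and 10.02 on M2a, and the receptors RARA (6.80 and 8.45) and RXRA (9.37 and 11.40) were higher in M2a. RXRB was within 2-fold at 9.98 and 9.82. For RXRA the M2a level was close to M0 (11.67), while that of ALDH1A2 was not.

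PPARG, the nuclear receptor of fatty acids, read 6.28 on M1 and 10.94 on M2a, with 10.60 on M0 and 10.35 on M2c, so it was the M1 array that was low. Its target FABP4, a fatty acid carrier, read 6.67 on M1 and 12.96 on M2a, 77.9-fold, with 10.01 on M0. LPL, which releases fatty acids from lipoproteins, read 5.14 and 11.69, at least 68.1-fold, with 8.60 on M0. For FABP4 and LPL the M2a array was thus above and the M1 array below M0. In all, 9 of 16 detected genes of fatty acid uptake and storage were higher in M2a, 5 of them in all 7 alternatives. The median was -1.08, or -0.53 with genes detected on 1 array at their bound. Among the 12 detected on both arrays, 5 were higher in M2a. The share of all genes tested was 17.7%, and that of all genes detected on both was 13.4%. The only member higher in M1 was ACSL1, an acyl-CoA synthetase (12.13 and 9.94), and the receptor CD36 was within 2-fold (9.80 and 10.67). NR1H3, the oxysterol receptor LXR-alpha, read 13.28 on M1 and 9.94 on M2a, while its efflux targets ABCA1 (9.94 and 9.70) and APOE (11.73 and 11.87) were within 2-fold. ABCG1 differed by -1.02 and was counted as higher in M2a, a call kept in 2 of 7 alternatives. Of 12 detected genes of LXR receptors and cholesterol efflux, 1 was higher in M1 and 2 were higher in M2a.

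The other markers of IL-4 were nearly all higher in M2a. F13A1, coagulation factor XIII, read 11.08 on M2a and was at background on M1 (4.26), at least 44.5-fold, with 7.94 on M0. SPINT2, a serine protease inhibitor, read 11.00 and 5.49, at least 42.2-fold, and the lectin CLEC4A 9.67 and 4.41, at least 16.8-fold. ALOX15, which oxygenates arachidonic acid, was at least 4.38-fold higher and IL17RB, a receptor of interleukin-25, at least 10.8-fold higher. The lectin CD209 read 12.29 on M2a and 9.49 on M1. TGM2, a transglutaminase widely used as an M2a marker, was 4.04-fold higher in M2a but also read 10.98 on M1, against 6.48 on M0 and 6.10 on M2c, and its other probe differed by -0.19 only. TGM2 was hence well above M0 in both states on this probe. ADAM19, a metalloprotease, was higher in M1 instead (8.59 and 5.07, at least 9.47-fold), and QPCT, a glutaminyl cyclase, read 8.50 on both.

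Matches to the wider-spaced STAT6-type element or the GAS-type element are shown for CISH, ITGAM and SLC7A8, 3 genes higher in M2a. They are examples only, and their part in the M2a levels was not tested. The STAT6-type motif was in 4.54% of promoters of genes higher in M2a and 4.70% of those within 2-fold. The GAS-type motif was in 4.82% and 6.04%. The integrin chain ITGAM read 8.45 on M1 and 12.28 on M2a, with 9.90 on M0, and SLC7A8, an amino acid transporter, read 7.48 and 10.78, with 9.95 on M0. The window of CISH (chr3:50611869-50612024, minus strand) holds 4 GAS-type matches, and those of ITGAM (chr16:31259895-31259955, plus strand) and SLC7A8 (chr14:23155425-23155475, minus strand) hold 1 STAT6-type match each. The sequences are RefSeq, GRCh38.p14, with the matches in capitals.
CISH: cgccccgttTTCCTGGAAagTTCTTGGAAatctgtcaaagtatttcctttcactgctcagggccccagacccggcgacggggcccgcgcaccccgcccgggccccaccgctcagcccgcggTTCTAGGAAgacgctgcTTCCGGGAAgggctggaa
ITGAM: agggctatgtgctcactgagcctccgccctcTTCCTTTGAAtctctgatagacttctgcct
SLC7A8: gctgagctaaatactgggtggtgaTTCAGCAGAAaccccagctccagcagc

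Eicosanoid genes were split between the states. PTGS1, the constitutive cyclooxygenase, read 6.63 on M1 and 10.77 on M2a, while PTGS2, the inducible one, read 10.07 and 4.62, at least 26.4-fold higher in M1. The prostaglandin E synthase PTGES (at least 14.8-fold) and the receptor PTGER4 (12.10 and 9.54) were higher in M1 with PTGS2. Thromboxane synthase TBXAS1 (6.32 and 9.59) and LTA4H, which makes leukotriene B4 (9.42 and 10.65), were higher in M2a with PTGS1. Each direction thus held 5 of the 12 detected members.

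Purinergic and metabolite receptors likewise differed by member. The adenosine receptor ADORA2A read 10.32 on M1 and 4.89 on M2a, at least 31.5-fold, while ADORA3 read 5.71 and 10.06, 20.3-fold higher in M2a. ADORA2B was within 2-fold (7.60 and 7.26). The succinate receptor SUCNR1 was at least 15.7-fold higher in M2a, and P2RX7, an ATP-gated channel, was higher in M1 (9.63 and 6.03). The phosphodiesterase PDE4B, which ends cyclic AMP signals, was at least 73.4-fold higher in M1.

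Among surface receptors of uptake, more were higher in M2a than in M1. The haemoglobin receptor CD163 read 7.45 on M1 and 9.83 on M2a, against 10.32 on M0, and COLEC12, a scavenger lectin, read 4.36 and 9.49, at least 14.8-fold, against 9.72 on M0. Of 8 detected scavenger receptors 4 were higher in M2a and none was higher in M1, and of 9 Fc receptors 5 were higher in M2a and 1 was higher in M1. Among members detected on both arrays, 2 of 6 scavenger receptors and 2 of 6 Fc receptors were higher in M2a. The medians of these members were -0.52 and 0.01. The share of all genes tested that were higher in M2a was 17.7%, and that of all genes detected on both was 13.4%. FCGR1A, the high-affinity receptor of immunoglobulin G, was higher in M1 (10.40 and 8.49), whereas FCGR2A (8.97 and 10.99), FCGR2B (6.80 and 8.91) and the immunoglobulin E receptors FCER1A (at least 6.05-fold) and FCER2 (at least 2.60-fold) were higher in M2a. The signalling chain FCER1G was within 2-fold at 13.84 and 13.29. MRC1, the mannose receptor, and CLEC10A were not detected on either array.

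Among integrins and adhesion molecules, ITGAM and ITGB5 (9.68 and 12.59) were higher in M2a, while ICAM1 (11.38 and 9.18) and VCAM1 (12.07 and 10.45) were higher in M1. VCAM1 was also far above M0 (4.64) on M2a. Of the matrix proteases MMP7 (at least 4.99-fold) and MMP12 (7.03 and 8.22) were higher in M2a, MMP14 (8.38 and 6.59) was higher in M1, and MMP9 was within 2-fold (13.41 and 13.55). The inhibitor TIMP2 read 9.40 and 12.10, but its other probes differed by -0.55 on average.

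**Figure D3:**
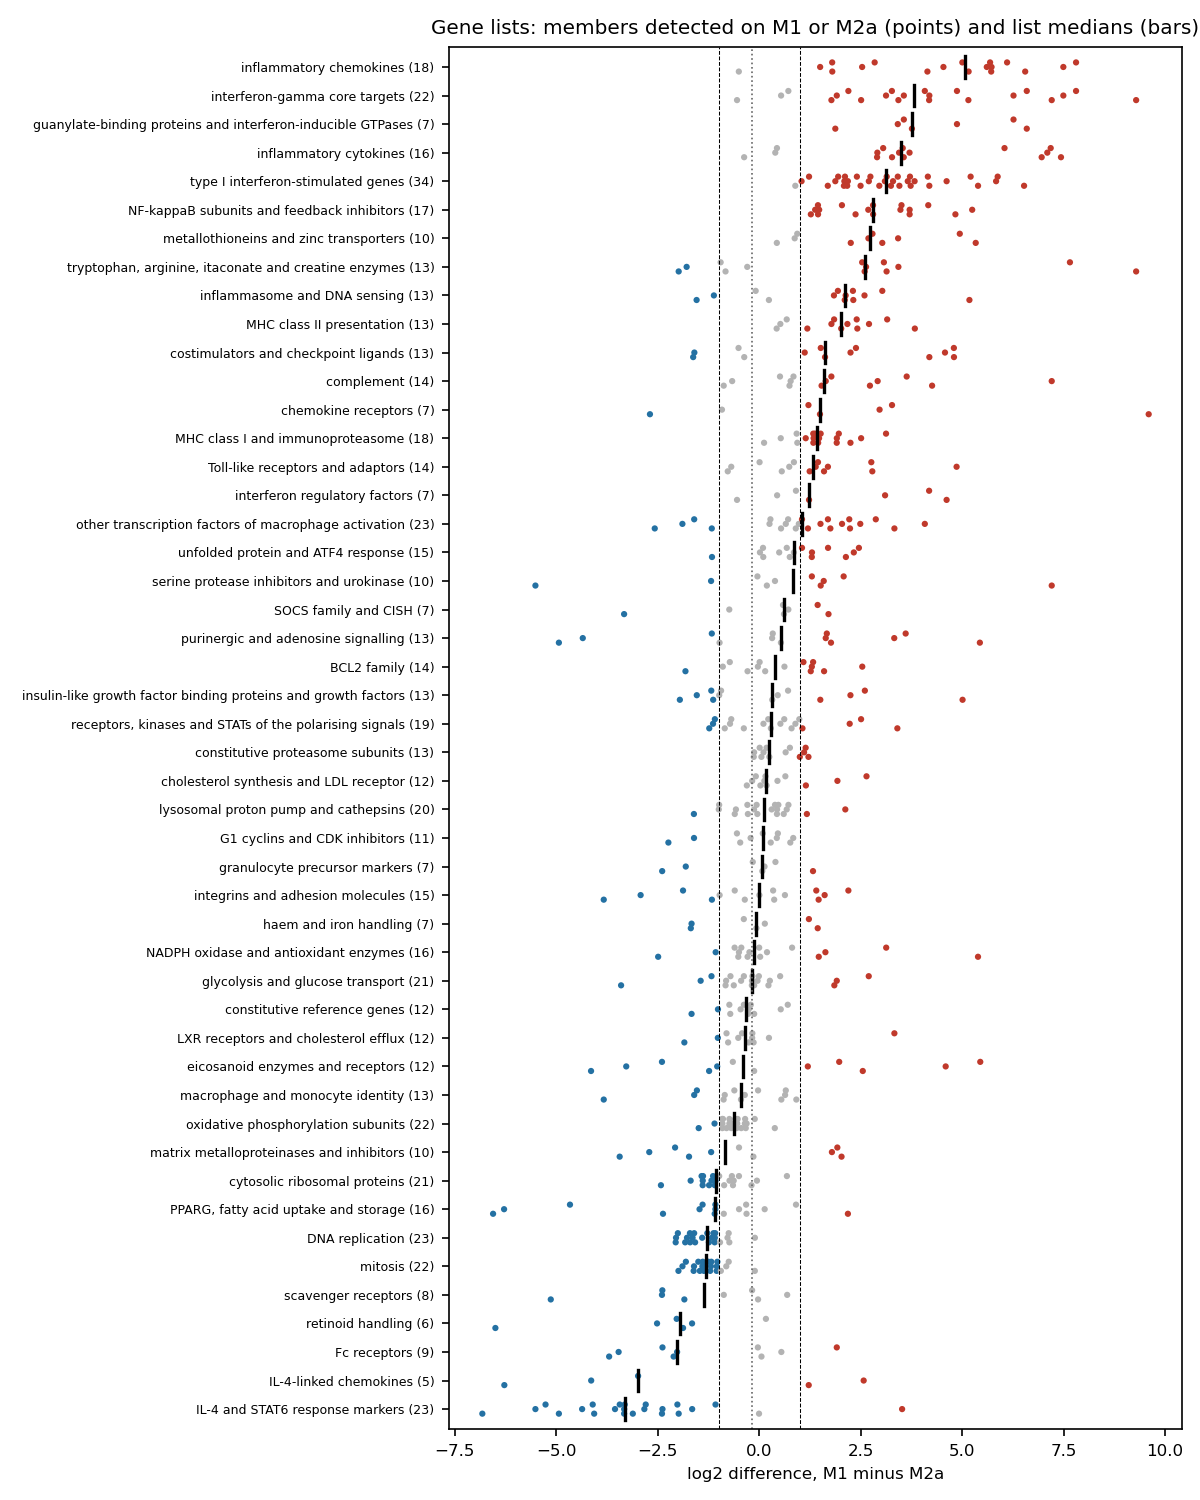
Log2 difference M1 minus M2a (horizontal) of the members of each gene list with at least 5 detected members, 1 point a gene and the number detected in brackets; red is at least 2-fold higher in M1, blue at least 2-fold higher in M2a and grey neither, black bars are list medians, dashed lines mark 2-fold and the dotted line the median of all 9791 genes at -0.17. Lists run from IL-4 and STAT6 response markers at the bottom (median -3.31) to inflammatory chemokines at the top (5.08).

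Genes of proliferation were higher in M2a or within 2-fold, never higher in M1. Of 23 detected genes of DNA replication 18 were higher in M2a, with a median of -1.28, and of 22 of mitosis 18 were, with a median of -1.30. Thymidylate synthase TYMS read 8.84 on M1 and 10.89 on M2a, the replication helicase subunit MCM6 9.57 and 11.27, and topoisomerase TOP2A 6.66 and 8.55. The levels of M0 were near those of M2a or above, with TOP2A at 9.97 and MCM6 at 11.71. In the authors' normalized table the calls were 13 of 23 and 7 of 22, and without background correction 14 and 7, so that the direction held for these lists but not the 2-fold rule. CCNE1 (5.62 and 7.85) and E2F1 (at least 2.02-fold) were higher in M2a among 11 detected G1 genes, and the other 9, CDKN1A (13.38 and 12.92) among them, were within 2-fold.

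Cytosolic ribosomal proteins were higher in M2a in 11 of 21 detected members, with a median of -1.08, and 6 of 21 passed under scaling over the detected probes. RPL8, a protein of the large subunit, read 11.91 on M1 and 13.33 on M2a and RPS3, of the small subunit, 11.43 and 12.82. Subunits of oxidative phosphorylation were mostly within 2-fold (20 of 22). On M1 21 of 22 were lower, with a median of -0.63. Most genes tested were lower on M1 too, with a median of -0.17. With scaling over all probes 9 of the subunits passed 2-fold. With scaling over the detected probes 1 did, and the median of the subunits was -0.29. Glycolysis genes did not separate the states, with 3 higher in M1, 3 higher in M2a and 15 within 2-fold. Within that list HK2 (10.26 and 8.35) and PFKFB3 (11.18 and 9.33), which raise glycolytic flux, and the transporter SLC2A6 (12.56 and 9.86) were higher in M1, and HK3 (at least 5.49-fold), PFKP (9.61 and 11.05) and PFKFB4 (9.36 and 10.53) were higher in M2a.

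Transcription factors known from macrophage activation were higher in M1 in 12 of 23 detected members and higher in M2a in 4. In all 7 alternatives 8 of the 12 calls and all 4 of the others held. The shares of all genes tested were 15.7% and 17.7%, so the count higher in M2a was near that of genes at large. CEBPB, a factor of inflammatory genes, read 13.56 on M1 and 11.34 on M2a, and its relative CEBPA was the reverse, as given above. The AP-1 members FOSL2 (9.09 and 5.75) and JUNB (8.12 and 5.63) and the early gene EGR1 (9.24 and 6.36) were higher in M1. MAF, a factor of resident macrophages, read 7.52 on M1 and 10.09 on M2a, KLF4, a factor of monocytes that is known to act with STAT6 in mouse, 6.93 and 8.82, and MYC 9.08 and 10.25. Among genes of the unfolded protein and ATF4 response 7 of 15 were higher in M1, for instance DDIT3 (10.10 and 7.64), whereas the chaperone HSPA5 was higher in M2a (7.32 and 8.48). IGFBP3, a carrier of insulin-like growth factors, read 12.04 on M1 and 7.03 on M2a against 10.87 on M0, so it was the M2a array that was low.

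Some neighbouring genes shared their direction. When the 9789 genes with a place in the RefSeq gene table were put in chromosomal order, 45 runs of at least 4 consecutive tested genes were past 2-fold in 1 direction, 24 runs with 119 genes higher in M1 and 21 runs with 93 genes higher in M2a. These 212 genes were 6.48% of the 3271 placed genes past 2-fold. The number of runs varied from 15 in the authors' normalized table to 121 under scaling over all probes. Among genes detected on both arrays 16 were found. How many runs order alone would give, with 15.7% and 17.7% of genes past 2-fold, was not computed. Some members had bounds near 1, such as NECTIN1 (1.05-fold) and GLRB (1.01-fold). Other runs, such as PDGFC, GLRB, GASK1B and TMEM144 on chromosome 4, were not of a single family. Runs of gene families stood on chromosome 1 (the guanylate-binding proteins, and CD1D to CD1E), on chromosome 16 (7 metallothioneins), on chromosome 17 (CCL2, CCL7, CCL8 and CCL1), on chromosome 11 (CASP4, CASP5, CASP1 and CARD16) and on chromosome 6, where 10 neighbours in the MHC from GPSM3 to PSMB9 were higher in M1. In such families probes may also share sequence. A run on chromosome 3 held PARP9 (11.30 and 9.04) and DTX3L (8.79 and 6.58), which form a ubiquitin ligase complex, with PARP14. On chromosome 6 the butyrophilins BTN3A1, BTN3A2 and BTN3A3 were higher in M1 by 1.68 to 2.75. This family is known from phosphoantigen responses of gamma-delta T cells.

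**Figure D4:**
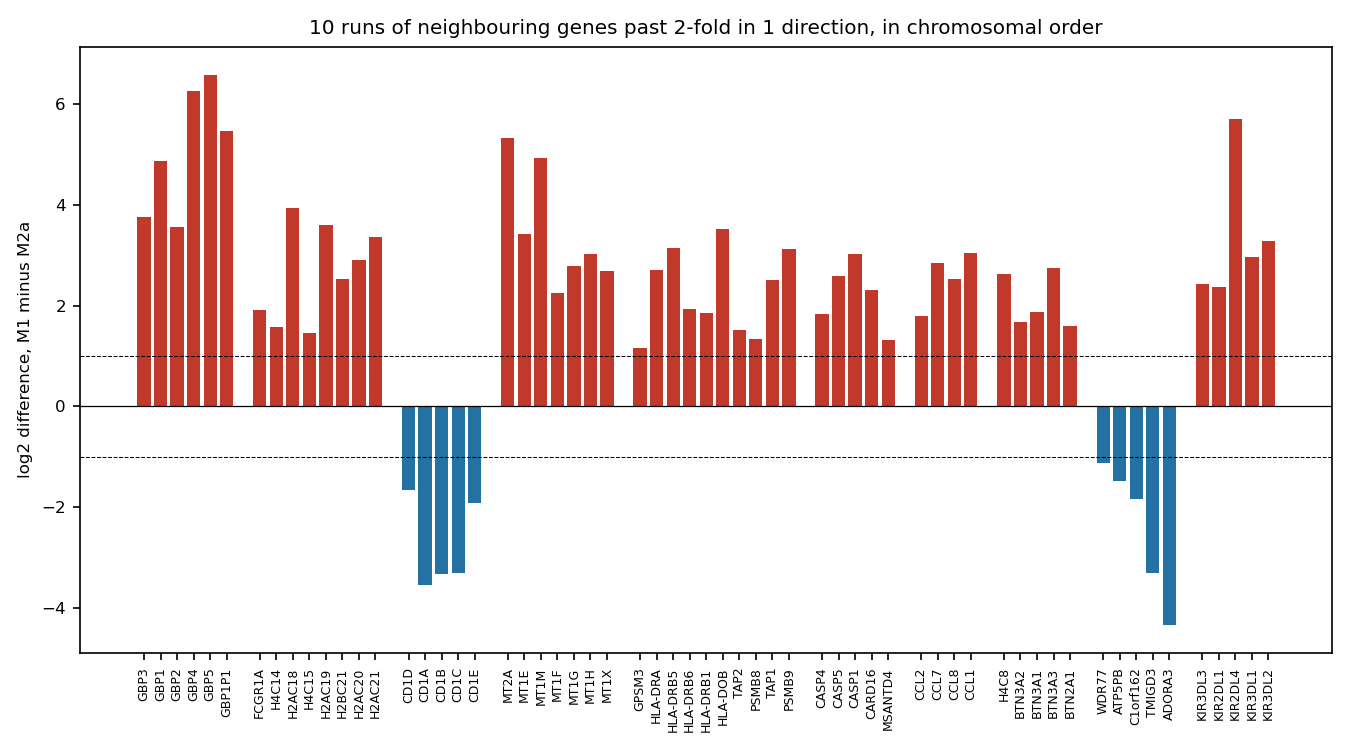
Log2 difference M1 minus M2a (vertical) of the genes of 10 runs of neighbouring genes, in chromosomal order within each run, with gaps between runs; red bars are genes higher in M1, blue bars higher in M2a, and dashed lines mark 2-fold. The guanylate-binding protein run reaches 6.59 at GBP5, the CD1 run lies between -1.67 and -3.55, and the run that ends with ADORA3 reaches -4.34.

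The promoters of the changed genes were searched for 5 elements, on both strands, in RefSeq windows of 250 bases before to 50 bases after the start (GRCh38.p14). Windows were found for 1190 of the 1536 genes higher in M1, 1410 of the 1736 higher in M2a and 5379 of the 6519 within 2-fold. The ISRE-type motif, GAAA and GAAA with any 2 bases between, was in 8.49% of promoters of genes higher in M1, 1.42% of those higher in M2a, 2.36% of those within 2-fold and 3.65% of all 27305 promoters of the table. The NF-kappaB-type motif, GGGA and TTCC with any 2 bases between, was in 3.53%, 1.28%, 1.21% and 1.63%. The GAS-type motif, TTC and GAA with any 3 bases between, was in 9.16%, 4.82%, 6.04% and 7.88%. Of these 3, all were held most often by promoters of genes higher in M1, as was the PU.1-type motif given below. The STAT6-type motif, TTC and GAA with any 4 bases between, was in 4.20%, 4.54%, 4.70% and 6.37%, with no excess among genes higher in M2a, and the PU.1-type motif GAGGAAGT was in 3.95%, 1.49%, 3.11% and 2.54%. Matches of different motifs can overlap, and a match describes letters, not binding.

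By list, the ISRE-type motif was in 16 of 26 promoters of type I interferon genes (61.5%) and in 7 of 16 of the interferon-gamma targets (43.8%). The NF-kappaB-type motif was in 5 of 13 promoters of inflammatory chemokines (38.5%) and in 5 of 14 of NF-kappaB genes (35.7%). The STAT6-type motif was in 2 of 16 promoters of the IL-4 markers (12.5%), in 4 of 26 of the type I interferon genes (15.4%) and in 0 of the promoters of the interferon-gamma, chemokine and NF-kappaB lists. These lists were chosen with their differences known, and the shares are descriptions.

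**Figure D5:**
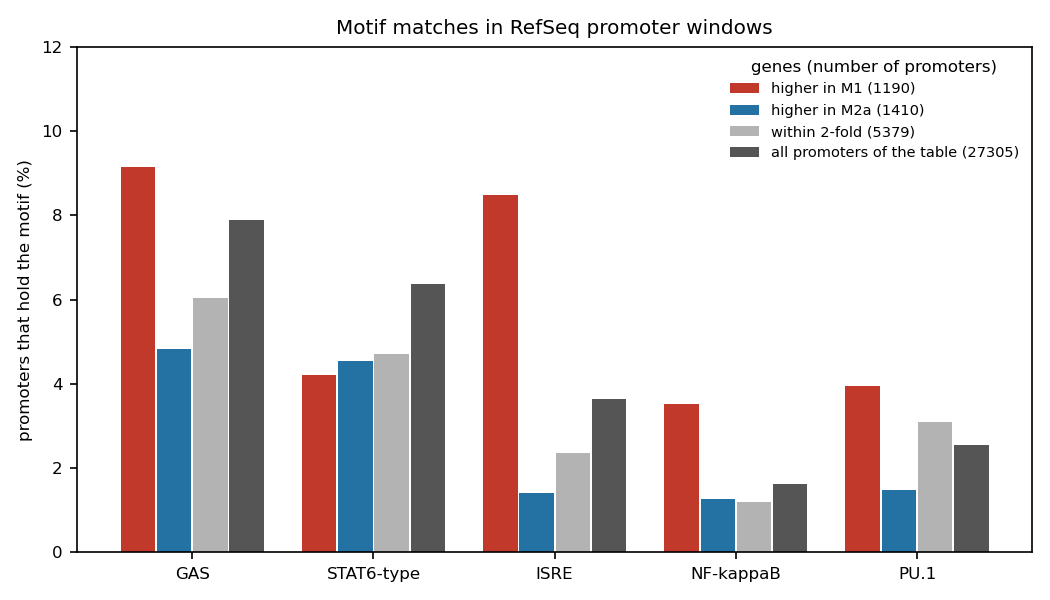
Share of promoter windows (vertical, percent) that hold each of 5 motifs, for genes higher in M1 (red), higher in M2a (blue), within 2-fold (light grey) and all promoters of the RefSeq table (dark grey), with the number of promoters in brackets. The ISRE bar of genes higher in M1 stands at 8.49% against 1.42% for genes higher in M2a, and the 4 STAT6-type bars lie between 4.20% and 6.37%.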

How the data were processed

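Total RNA of 4 THP-1 macrophage preparations was read on 4 arrays, 1 a group, and the number of arrays limits the precision. For 47228 probes the authors deposited a linear intensity and a detection p-value per array, once as raw signals and once normalized, and a value table that equals the normalized one (0 cells differ). The deposited normalized intensity is a quantile normalization by its values: once sorted, every column departed by at most 0.437% from the averaged sorted raw columns. The submitters' processing notes name GenomeStudio and no version.

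The non-normalized intensity was corrected for background by normexp in limma 3.58.1 (neqc, R 4.3.3), taking the noise level out of the detection p-values and adding an offset of 16, then quantile normalized over 4 arrays and put on the log2 scale. Differences between dim probes are shrunk by that offset. Of the probes, 30111 had 1 gene symbol in the platform annotation, 8 had several and 17109 were unnamed here, and 30072 symbols were brought up to date by Entrez identifier from RefSeq (GRCh38.p14). Each of 20045 genes was read by its probe of highest mean over the 4 arrays; 6690 genes had several probes. Probes of near-identical genes (HLA, KIR, histone and metallothionein genes, CCL3L1, CCL4L1, NCF1, FCGR1A) give uncertain values.

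No test was possible with 1 array a group. Counts use a detection p below 0.01 on M1 or M2a and a difference of at least 2-fold. Genes named are the 20 largest differences in each direction among genes detected on both arrays, the 12 largest bounds in each direction among those detected on 1, the members of the gene lists and the genes of the runs. The members and lists were chosen with earlier results of these data known. The counting was run on simulated data, a noisy copy of the M2a array with known changes on a small set of its detected genes. Those changes were balanced in direction and far fewer than here, so the simulation cannot show that these counts hold. Genes without a probe annotated here were not analysed.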

Additional observations from a re-analysis of the deposited data

How the results depend on the processing

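The number of genes higher in M1, 1536, became 886 in the authors' normalized table, 882 without background correction and 955 with scaling to a common median over all probes. The number higher in M2a, 1736, became 736, 738 and 3100 in the same settings, 1101 with an offset of 50 and 1023 among genes detected on both arrays. Dim genes lose difference by construction where background is not removed or the offset is larger, and the filter on both arrays leaves fewer genes; for the scaling the cause was not tested. Genes higher in M1 as a share of those past 2-fold, 46.9%, became 54.6% in the authors' table, 54.4% without background correction, 50.2% with an offset of 50, 23.6% and 61.7% with scaling over all and over detected probes, and 51.3% among genes detected on both arrays. The 45 runs of neighbours became 15 in the authors' table, 15 without background correction, 22 with an offset of 50, 121 with scaling over all probes and 16 among genes detected on both arrays. With calls from the authors' table, the motif shares among genes higher in M1 became 11.05% for GAS, 10.9% for ISRE and 4.80% for NF-kappaB, and that of the STAT6-type motif among genes higher in M2a 5.85%. All 64 genes named for the size of their difference or bound stayed past 2-fold in the 7 alternatives for values, and no called value changed direction in any. Scaling over the detected probes was chosen after seeing the data. No paired analysis was possible because each group has 1 array, and for the same reason no replicate could be left out. With 1 array a state, the dimmer M1 array and the treatment cannot be told apart, and genes near background have only bounds.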

Other observations

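Several of the largest differences belong to genes outside the gene lists. Higher in M1 were TNFAIP6, a hyaluronan-binding protein of inflamed tissue (12.65 on M1, 6.49 on M2a), the mitochondrial carrier SLC25A24 (11.01 and 5.63), CALHM6, a channel-like membrane protein (11.85 and 6.60), and the cytidine deaminase APOBEC3A (11.45 on M1 and not detected on M2a, at least 68.7-fold). Higher in M2a were the ribonuclease RNASE1 (6.59 on M1, 10.71 on M2a), the uptake transporter SLCO2B1 (7.30 and 11.06), the growth factor gene BMP8B (5.61 and 9.70), the kinases CAMK1 (6.26 and 9.88) and PRKCA (6.35 and 9.86), the death receptor TNFRSF21 (7.80 and 11.12) and the phospholipase PLCB2 (6.11 and 9.43). The blood cell factor NFE2 was at least 22.5-fold higher in M2a and GFRA2, a co-receptor of neurturin, at least 15.0-fold higher. For BMP8B the highest reading was on M2c, at 10.67, and for GRAMD4 the readings of M0 (9.55), M2a (9.48) and M2c (9.78) were alike while M1 read 5.72. MATK, a kinase that read 6.36 and 10.08, had another probe that differed by -0.51 only.

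Histone genes formed 2 runs higher in M1. The run on chromosome 1 held H2AC18 (12.71 on M1, 8.78 on M2a), H2AC19 (12.59 and 8.99) and H2AC20 (12.46 and 9.55), with 4 other histone genes and FCGR1A, and the run on chromosome 6 held H2BC5 (9.61 and 7.34) with 5 others. Their probes read near-identical copies, so the number of genes is uncertain, and genes of DNA replication ran the other way on the same arrays. KIR genes, receptors known from NK cells, formed a run of 5 on chromosome 19. The run was led by KIR2DL4 (10.75 on M1 and not detected on M2a, at least 42.3-fold). KIR genes too are near-identical in sequence. The immune GTPases GIMAP8 (10.74 and 7.31), GIMAP4 (9.26 and 7.28) and GIMAP2 (9.33 and 7.05), known from lymphocytes, were higher in M1 as neighbours on chromosome 7.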
